A study of Mus musculus with 11 samples.

Results

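The genes described here are Trp53, which encodes the mouse p53 protein, and 33 genes whose transcription p53 is known to raise or whose products act back on p53. They were chosen by name as a fixed set of symbols, without a measured value in the rule but with earlier results of these data known. All 34 were found among the 48299 genes of the deposited count table. All 34 also passed the filter on low counts that left 14346 genes for testing. The data are RNA sequencing of oligo(dT)-selected RNA from WFU3 cells, which are mouse prostate epithelial stem cells grown as a line, in 11 libraries. The study compared knockdown by short hairpin RNA (shRNA) of Map3k7, which encodes the kinase TAK1, of Chd1, which encodes a chromatin remodeller, of both, and of neither.

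Every library came from cells with lentiviral hairpins, and each label names more than 1, so that no untransduced cells were in the comparison. The 3 shControl libraries were an unnumbered line with control hairpins under puromycin and neomycin selection at passage 30, and the numbered control lines 4 and 5 at passage 52, which carried a control hairpin with GFP and a control hairpin with puromycin resistance. Both shMap3k7 libraries came from isolated clones, at passage 49 for clone 1 and 47 for clone 7. They carried the Map3k7 hairpin with GFP and a control hairpin with puromycin resistance. Control line 4 gave both shChd1 libraries, with Chd1 hairpin construct 96526 at passage 52 and with construct 96528 at passage 50. These carried the control hairpin with GFP and the Chd1 hairpin with puromycin resistance. The 4 shDouble libraries were clone 1 with 96526 and with 96528, both at passage 49, and clone 7 with each construct at passage 48. Their hairpins were that of Map3k7 with GFP and that of Chd1 with puromycin resistance. A group therefore holds 1 to 3 lines, and both shChd1 libraries are the same line, so what the Chd1 hairpins did in that group cannot be told apart from what line 4 is, except against its own library without them. Separate cultures are stated for none of the groups, and p-values measure only the spread between these libraries, which may be technical.

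The p53 protein is a transcription factor that is held low by the ubiquitin ligase Mdm2 and its partner Mdm4, and that accumulates after DNA damage and other stress. It binds a response element made of a pair of 10-base units and raises genes for cell cycle arrest, apoptosis, DNA repair and metabolism, among them Mdm2 itself, which closes a feedback loop. Much of this control acts on the stability of the p53 protein, which RNA sequencing does not measure.

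Total counts ran from 14132371 to 23163709 per library. Map3k7 lay between 39.3 and 42.99 counts-per-million (CPM) in the 6 libraries with its hairpin and between 124 and 140.4 CPM in the other 5. Chd1 was at 145 and 150.3 CPM in shChd1, at 198, 162, 194 and 189.9 CPM in shDouble, at 221 and 238 CPM in shMap3k7 and at 212, 195 and 204 CPM in shControl. Of the shDouble libraries 3 therefore lay near the lowest control. Keratins Krt8, Krt14 and Krt18 were abundant in every library. The unnumbered control library stood apart, with a summed level of 4 endothelial markers of 42.4 CPM against at most 0.436 CPM elsewhere. For the comparisons with shControl, counts of calls are therefore given with and without it. The summed level of 6 fibroblast markers ran from 23.4 to 86.9 CPM in shControl, 5.92 to 9.71 CPM in shMap3k7, 125 to 132 CPM in shChd1 and 4.34 to 6.06 CPM in shDouble, with Lum at 0 in all. In bulk samples such as these, fewer cells of a type and less RNA per cell cannot be told apart.

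Trp53 was well expressed in all 11 libraries. Per kilobase of exon, Plk2 had the highest mean level of the 34 genes at 112 CPM, followed by Bax at 95.2 and Perp at 70.9, and Trp53 was at 60.2. The lowest were Rrm2b at 1.31 and Sesn1 at 2.06 CPM per kilobase. Levels between libraries varied least for Apaf1, whose highest library was 1.46 times its lowest, and for Trp53 at 1.50 times, and far more for Dram1 at 49.0 times. Gdf15 had 0 counts in shControl 2 and shChd1 2, both control line 4, which allows up to 0.156 and 0.190 CPM (3 counts).

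**Figure D1:**
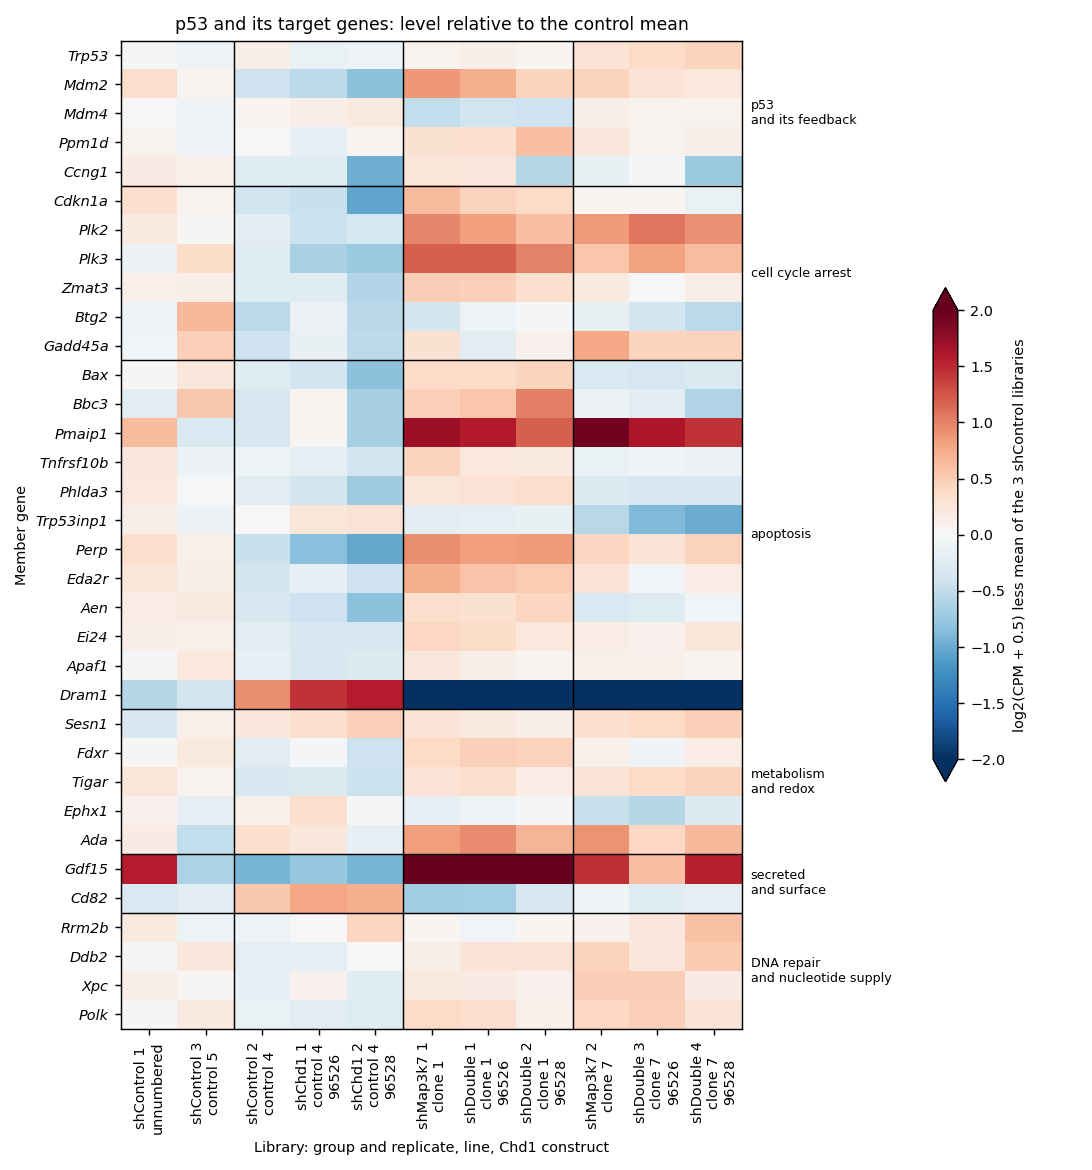
Log2(CPM + 0.5) of each gene (rows, by role) in each library (columns, by line and construct) less its mean over the 3 shControl libraries, with colours ending at 2 and -2. Red marks a higher and blue a lower level, and Dram1 is lowest in the 6 Map3k7 hairpin libraries and highest in control line 4.

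The median departure of the 34 genes from the shControl mean, on the log2 scale, summarises the libraries. It was 0.11, -0.22 and 0.07 in shControl 1 to 3, 0.34 and 0.17 in shMap3k7, -0.18 and -0.41 in shChd1, and 0.32, 0.24, 0.08 and 0.16 in shDouble. Control line 4 was the low line among the controls, with 25 of 34 genes below the control mean, and its libraries with Chd1 hairpins were low too. The library of line 4 with construct 96528 held the lowest value of 20 of the 34 genes, and clone 1 with no Chd1 hairpin held the highest of 9. The shares of all genes with their extremes in these libraries, or below the control mean in line 4, were not counted. The member counts therefore have no background beside them. The median over all genes tested ran from -0.00448 to 0.0105 over the libraries.

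Start-site sequence was available from RefSeq (assembly GRCm38.p6) for 26 of the 34 genes, as windows from 250 bases before to 50 bases after a start. Perp, Pmaip1, Rrm2b, Ddb2, Tnfrsf10b, Zmat3, Trp53inp1 and Xpc had no window. The 26 genes had 37 windows together, so a count of genes and a share of windows differ in unit. The 10-base unit of the p53 response element, searched by its consensus on both strands, stood in a window of 11 of the 26 genes (Aen, Bax, Ccng1, Cdkn1a, Ei24, Gadd45a, Mdm2, Polk, Ppm1d, Sesn1 and Trp53) and in 8.36% of all 32851 windows. Sequence is shown for Trp53 and 5 target genes described below, chosen among the genes whose unit lay outside every annotated exon; Sesn1 and Ppm1d, which were called in no comparison, also had such a unit and are not shown. Each is given 5′ to 3′ on the gene's strand with the unit in capitals.
Cdkn1a, chr17:29090896-29090947, plus strand: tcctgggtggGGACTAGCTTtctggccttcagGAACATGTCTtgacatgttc
Mdm2, chr10:117710925-117710954, minus strand: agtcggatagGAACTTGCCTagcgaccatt
Ccng1, chr11:40755452-40755481, minus strand: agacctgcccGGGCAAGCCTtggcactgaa
Bax, chr7:45467080-45467109, minus strand: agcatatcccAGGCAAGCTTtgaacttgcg
Trp53, chr11:69580274-69580303, plus strand: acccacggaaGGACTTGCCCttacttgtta
Polk, chr13:96519399-96519428, minus strand: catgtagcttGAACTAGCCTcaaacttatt

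Cdkn1a alone of the 26 genes held a pair of units no more than 13 bases apart, with 12 bases between them, which 24 of all windows (0.0731%) did. Counted from the RefSeq start, the units began at -73 and -51 in Cdkn1a, -186 in Mdm2, -185 in Ccng1, -201 in Bax, -75 in Trp53 and -231 in Polk. Only exact matches to the consensus were marked. The 10 bases that directly follow the second Cdkn1a unit miss it at their first base alone, so they stand in small letters. A match is a run of letters and shows no binding.

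Between the Map3k7 knockdown clones and the control lines, 3 of the 34 genes rose and 1 fell. These share no line, so the Map3k7 hairpin cannot be told apart from clones 1 and 7, here or with both hairpins. The risers were Pmaip1, Plk2 and Plk3, and Dram1 fell 13.2-fold. Calls are genes with an adjusted p under 0.05 in the edgeR quasi-likelihood test, adjusted by Benjamini-Hochberg over the whole table, and 11.9% of all 14346 genes were called, 4.86% higher and 7.08% lower, against 11.8% of the members. The share of members called was near the background. The median log2 change of the 34 was 0.27, with 27 above 0, beside a median of -0.01 over all genes. With both hairpins against control Pmaip1, Plk2 and Plk3 were again called higher and Dram1 lower, where 23.8% of all genes were called, 10.2% higher and 13.6% lower, and the median of the 34 was 0.23. Both comparisons use the same 3 shControl libraries and both rest on clones 1 and 7, so they are not separate evidence, and each comparison's values are given side by side.

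Coordinates of genes are on GRCm38 from GENCODE M21, and ± after a log2 value is its standard error. Plk2 (chromosome 13, 110395046 to 110400844) is a polo-like kinase that acts in centriole duplication and stress checkpoints. Its level was 404, 305 and 362 CPM in shControl, 699 and 639 CPM in shMap3k7, 264 and 278 CPM in shChd1 and 624, 538, 744 and 669.8 CPM in shDouble. All 6 libraries with the Map3k7 hairpin lay above all 5 without it. The log2 change was 0.91 ± 0.14 (adjusted p 0.00523) in shMap3k7 and 0.85 ± 0.13 (adjusted p 0.00138) in shDouble, and the first was not called without shMap3k7 1 (adjusted p 0.058). Plk3 (chromosome 4, 117128655 to 117133963), a related kinase of the stress response, stood at 13.04, 11.8 and 18.5 CPM in shControl, 32.97 and 21.2 CPM in shMap3k7, 8.90 and 8.28 CPM in shChd1 and 32.99, 28.8, 25.1 and 21.99 CPM in shDouble. Here too the 6 libraries with the Map3k7 hairpin were the highest. The log2 change of Plk3 was 0.91 ± 0.24 (adjusted p 0.0368) in shMap3k7 and 0.91 ± 0.21 (adjusted p 0.0114) in shDouble. Over the 882 genes of chromosome 4 the median log2 change was 0.21 in shMap3k7 and 0.21 in shDouble. Relative to these medians, Plk3 was 0.70 in each, and the part of the chromosome's shift was not tested. The shMap3k7 call for Plk3 did not hold in 8 of 17 alternatives, among them without shControl 1 or shControl 2, whereas the shDouble call held in all 17. Without shMap3k7 1 the log2 change of Plk3 in shMap3k7 was 0.54. Leaving out 1 shDouble library removes neither clone, while leaving out 1 shMap3k7 library removes 1. These alternatives therefore do not show that the shDouble call is the firmer.

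Pmaip1 (chromosome 18, 66458533 to 66465565) encodes Noxa, a BH3-only protein that promotes apoptosis by binding Mcl1. Its level was 9.42, 4.57 and 4.67 CPM in shControl, 20.5 and 23.9 CPM in shMap3k7, 6.16 and 3.54 CPM in shChd1 and 18.7, 14.2, 19.004 and 16.9 CPM in shDouble. The ranges with and without the Map3k7 hairpin did not overlap. The log2 change was 1.84 ± 0.32 (adjusted p 0.0074) in shMap3k7 and 1.47 ± 0.28 (adjusted p 0.00488) in shDouble. The shMap3k7 call was lost when only those libraries and shControl were fitted (adjusted p 0.0675) and without shMap3k7 2 (adjusted p 0.0504). Dram1 (chromosome 10, 88322804 to 88379080), a lysosomal membrane protein linked to autophagy, was at 7.99, 23.6 and 9.29 CPM in shControl, 1.17 and 0.869 CPM in shMap3k7, 33.8 and 36.9 CPM in shChd1 and 0.752, 1.51, 0.989 and 0.832 CPM in shDouble. No library with the Map3k7 hairpin passed 1.51 CPM, and the 3 libraries of control line 4 were the highest. The log2 change was -3.73 ± 0.54 (adjusted p 0.00335) in shMap3k7 and -3.72 ± 0.40 (adjusted p 0.000272) in shDouble, and both calls held in all 17 alternatives. By group, the fibroblast markers were ordered like Dram1, but among the controls their sum was highest in the unnumbered line, where Dram1 was lowest. Their part in its difference was not tested.

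**Figure D2:**
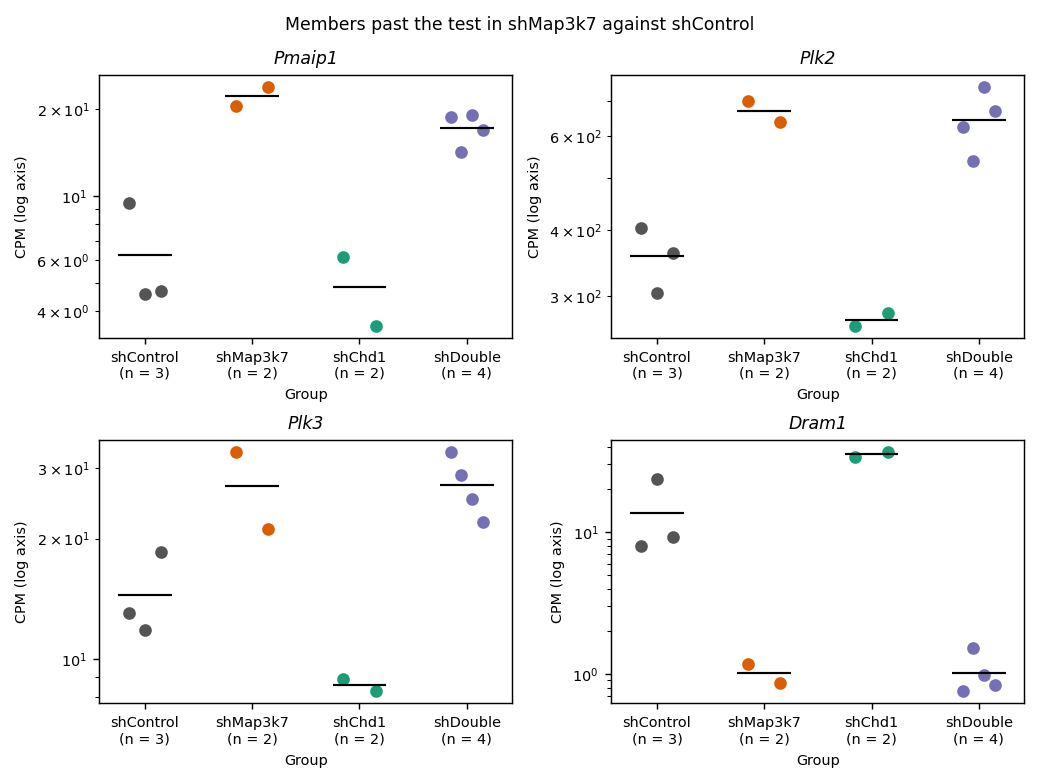
Levels in CPM, on log axes, of Pmaip1, Plk2, Plk3 and Dram1 by group, with 1 point per library and a bar at the group mean. Pmaip1, Plk2 and Plk3 lie higher and Dram1 lower in every library with a Map3k7 hairpin.

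Other members were higher in Map3k7 clones without passing the test. In shMap3k7 14 of the 34 genes lay above every shControl library and 2 below, while 20.9% of all genes lay above and 22.0% below. Mdm2 (chromosome 10, 117688875 to 117710758) was at 191, 112 and 155 CPM in shControl, 273 and 204 CPM in shMap3k7, 104 and 84.7 CPM in shChd1 and 247, 204, 181 and 173 CPM in shDouble. Both shMap3k7 libraries exceeded all controls, but shDouble overlapped them. The log2 change of Mdm2 was 0.64 ± 0.23 (adjusted p 0.0904) in shMap3k7, a call only with DESeq2 (adjusted p 0.0414) and without shControl 1 (adjusted p 0.0405). Cdkn1a (chromosome 17, 29090976 to 29100727) encodes p21, the cyclin-dependent kinase inhibitor through which p53 halts the cell cycle, and stood at 139.9, 83.9 and 116 CPM in shControl, 172 and 114 CPM in shMap3k7, 80.9 and 53.5 CPM in shChd1 and 153, 144, 114 and 101 CPM in shDouble. Its groups overlapped, and its log2 change was 0.34 ± 0.27 (adjusted p 0.44) in shMap3k7. Trp53 itself (chromosome 11, 69580359 to 69591873) was at 221, 246 and 209 CPM in shControl, 237 and 271 CPM in shMap3k7, 205 and 209 CPM in shChd1 and 244, 232, 296 and 308 CPM in shDouble, with a log2 change of 0.17 ± 0.14 (adjusted p 0.435) in shMap3k7 and 0.26 ± 0.12 (adjusted p 0.127) in shDouble. Without shControl 1, 5 of the 34 genes were called in shMap3k7, 4 higher and 1 lower, where 12.6% of all genes were. In shDouble 6 were called, where 21.5% of all genes were.

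With Chd1 hairpins in control line 4 against the 3 control lines, none of the 34 genes was called by edgeR, where 2.91% of all genes were, 0.662% higher and 2.24% lower. At an unadjusted p under 0.05 there were 12, beside 25.1% of all genes. The limma voom test called 1 member and 3.59% of all genes, and DESeq2 called 3 members and 12.0% of all genes. Without shControl 1, the unnumbered line, edgeR called 0 members and 5 of all genes. The median log2 change of the 34 was -0.33, with 27 below 0. In shChd1 14 of the 34 genes lay below every shControl library and 5 above, while 23.4% of all genes lay below and 23.1% above. The 14 were Trp53, Cdkn1a, Mdm2, Bax, Plk2, Plk3, Tnfrsf10b, Zmat3, Phlda3, Perp, Aen, Polk, Ei24 and Apaf1. Cdkn1a had a log2 change of -0.75 ± 0.28 (adjusted p 0.134) and Mdm2 of -0.70 ± 0.23 (adjusted p 0.107). Perp, a membrane protein of desmosomes and p53-driven apoptosis, had one of -0.97 ± 0.26 (adjusted p 0.0661). On chromosome 10, which holds Mdm2, Perp, Apaf1 and Dram1, the median log2 change over 646 genes was -0.23. Relative to that median, Mdm2 was -0.47, Perp -0.74, Apaf1 -0.08 and Dram1 1.60. The part of the chromosome's shift was not tested.

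The count for shChd1 depended on the control library of the same line. Without shControl 2, which is line 4, 10 of the 34 genes were called, 2 higher and 8 lower, and 2650 of all genes (18.7%). With the line as a replicate block, which sets the shChd1 libraries against line 4 alone, 0 were called and 142 of all genes (0.99%). Line 4 without a Chd1 hairpin was itself the lowest of the 3 controls for Cdkn1a, Mdm2, Ccng1, Bax, Perp, Zmat3 and Aen. Cdkn2a, named after its values were seen, whose product p19Arf restrains Mdm2 in mouse cells, had 0 counts over the 3 libraries of line 4 together, which allows up to 0.0586 CPM (3 counts). It had 61 counts in the unnumbered control line, 17 in control line 5, 91 over the 3 libraries of clone 1 and 63 over those of clone 7. The table pools the transcripts of that locus, p16Ink4a included. Of the epithelial markers, the summed basal level was 882 to 935 CPM in shChd1 and 1738 to 4276 CPM in shControl. Of the 4 basal markers, 2 had a log2 change above 0 and 2 below. The part of the epithelial markers in the members' lower levels was not tested.

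Within a line, the Chd1 hairpin gave no call among the 34 genes by the edgeR test, with 2 at an unadjusted p under 0.05, beside 4.91% of all genes, and 0 called by DESeq2 or limma voom. Of all genes 4 were called (0.0279%). Chd1 itself, against its line's library lacking Chd1 hairpins, stood at 74.56% with 96526 and 77.05% with 96528 in line 4. In clone 1 it stood at 89.67% and 73.45%, and in clone 7 at 81.54% and 79.72%. Its log2 change within line was -0.29 ± 0.08 with 96526 and -0.38 ± 0.08 (edgeR, adjusted p 0.199) with 96528, neither being called. The counts are for this partial lowering of Chd1 RNA. Of the 34, 23 had a log2 change below 0, and the median was -0.08. Cdkn1a, Mdm2 and Zmat3, a zinc finger RNA-binding protein, were lower in all 6 libraries with a Chd1 hairpin than in that line's library lacking Chd1 hairpins, as were 3.40% of all genes. Mdm2 had a log2 change of -0.24 ± 0.08 (adjusted p 0.937) and was one of the 2.

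The 2 Chd1 constructs differed at 1 member, Ccng1 (chromosome 11, 40748552 to 40755311), which encodes cyclin G1, a partner of protein phosphatase 2A that acts on Mdm2. It was the only one of the 14346 genes called between the constructs by edgeR as fitted (0.00697%). Of all genes DESeq2 called 24, limma voom 3 and edgeR with no filter on low counts 43, with Ccng1 the 1 member in each. Ccng1 was at 293, 218 and 281 CPM in shControl, 309 and 236 CPM in shMap3k7, 221 and 133 CPM in shChd1 and 307, 177, 256 and 157 CPM in shDouble. The 3 lowest of the 11 libraries were the 3 with construct 96528. In line 4 the level with 96528 was 60.03% of that with 96526, in clone 1 57.7% and in clone 7 61.3%. The log2 difference, 96528 less 96526 within line, was -0.74 ± 0.06 (adjusted p 0.0136).

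Relative to each line's own library with no Chd1 hairpin, construct 96526 left Ccng1 at 102% in line 4, 99.3% in clone 1 and 109% in clone 7. Construct 96528 left it at 61.0%, 57.3% and 66.6%. Against no Chd1 hairpin within line, the log2 change of Ccng1 was -0.70 ± 0.06 (adjusted p 0.0113) with 96528 and 0.04 ± 0.06 (adjusted p 1) with 96526. Each construct was called for 6 genes in all (0.0418%), with Ccng1 the 1 member for 96528 and no member for 96526. This comparison with no Chd1 hairpin was chosen after the Ccng1 values had been seen. Chd1 itself differed between the constructs by a log2 of -0.09 ± 0.08 (adjusted p 0.972). Each pair holds 1 library per construct and line, and the call was lost when any 1 of shChd1 1 or the 4 shDouble libraries was left out, with adjusted p from 0.118 to 0.357, while the log2 difference stayed between -0.78 and -0.70 in all 16 alternatives.

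**Figure D3:**
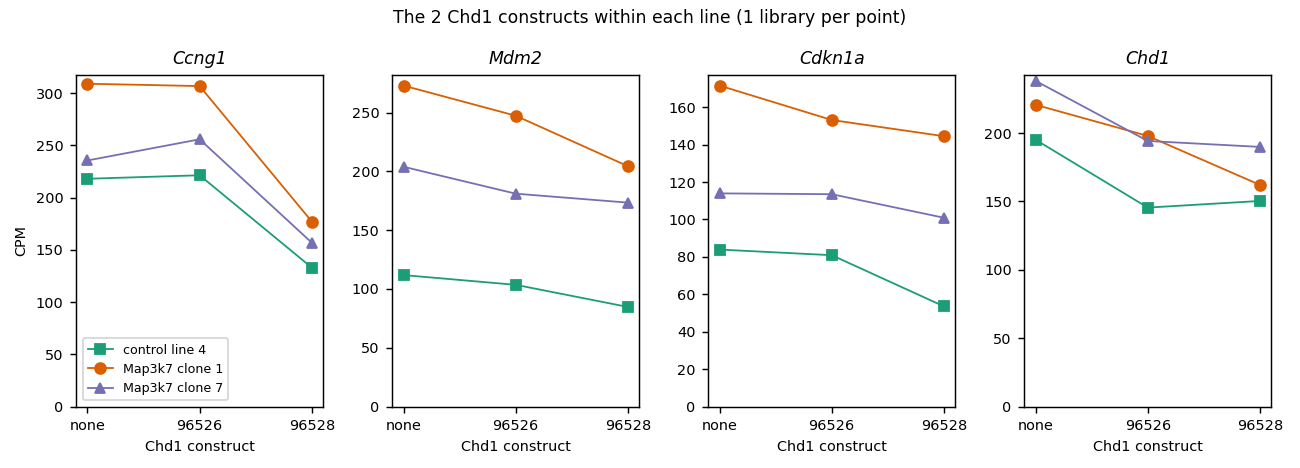
Levels in CPM of Ccng1, Mdm2, Cdkn1a and Chd1 in control line 4 and Map3k7 clones 1 and 7 with no Chd1 hairpin, construct 96526 and construct 96528, with 1 point per library joined by line. Ccng1 is lower with 96528 in all 3 lines and near the level without a Chd1 hairpin with 96526.

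No other member was called between the constructs. Lower with 96528 than with 96526 in all 3 lines were 8 of 34, Cdkn1a, Mdm2, Ccng1, Pmaip1, Plk3, Tnfrsf10b, Xpc and Polk, against 16.4% of all genes. The log2 difference was -0.21 ± 0.07 (adjusted p 0.742) for Mdm2, -0.41 ± 0.15 (adjusted p 0.742) for Pmaip1 and -0.27 ± 0.10 (adjusted p 0.796) for Cdkn1a. By line, 24 of the 34 were lower with 96528 in line 4, 20 in clone 1 and 16 in clone 7, beside 53.1%, 49.6% and 50.1% of all genes. At an unadjusted p under 0.05 there were 7, beside 5.75% of all genes.

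Both hairpins against the Chd1 hairpins alone were called for 14 members higher and 3 lower, 50.0% of the 34. Of all genes 44.8% were called, 22.6% higher and 22.2% lower, so the total was near the background, while 41.2% of the members were higher and 8.82% lower. The median log2 difference of the 34 was 0.55 beside 0.01 over all genes. The comparison sets clones 1 and 7 against line 4, and the Map3k7 hairpin cannot be told apart from those lines in it. Without shChd1 2 the count was 7, 5 higher and 2 lower, beside 24.4% of all genes. With the line as a random block in limma voom it was 8, 6 higher and 2 lower, beside 22.3% of all genes. The summed level of the basal markers was 1766 to 2588 CPM in shDouble against 882 to 935 CPM in shChd1. Most basal markers went the other way, with 3 of the 4 lower in shDouble and 1 higher. Their median log2 difference was -1.22. The summed level of the luminal markers was 6945 to 7423 CPM in shDouble and 7226 to 7374 CPM in shMap3k7. It was 1513 to 1671 CPM in shChd1 and 2262 to 5304 CPM in shControl. The part of these epithelial markers in the members' differences was not tested.

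Among p53 and its regulators, Trp53 was 0.38 ± 0.13 (adjusted p 0.0371) and Mdm2 1.10 ± 0.23 (adjusted p 0.00334) on the log2 scale. Among arrest genes Cdkn1a was 0.93 ± 0.27 (adjusted p 0.0174), Plk2 1.25 ± 0.15 (adjusted p 0.000196), Plk3 1.66 ± 0.25 (adjusted p 0.000672) and Zmat3 0.65 ± 0.17 (adjusted p 0.0107). Each of these 6 was higher in all 4 shDouble libraries than in both shChd1 libraries. So were 21 of the 34 members and 31.8% of all genes, while 5 members and 31.9% of all genes were lower in all 4. Perp was at 143, 82.3 and 119.9 CPM in shControl, 213 and 152 CPM in shMap3k7, 62.8 and 54.6 CPM in shChd1 and 202, 203, 135 and 155 CPM in shDouble. Its 2 shChd1 libraries were the lowest of all 11 and clone 1 held the 3 highest values. The difference for Perp was 1.57 ± 0.26 (adjusted p 0.000949), for Pmaip1 1.83 ± 0.34 (adjusted p 0.00175) and for Aen 0.73 ± 0.25 (adjusted p 0.0352). On chromosome 10, which holds Mdm2, Perp, Apaf1 and Dram1, the median log2 difference over 646 genes was 0.29, and 38.7% of its genes were called higher. Relative to that median, Mdm2 was 0.81, Perp 1.27, Apaf1 0.09 and Dram1 -5.39 on the log2 scale. The part of the chromosome's shift was not tested.

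Polk encodes a translesion DNA polymerase. It was at 33.9, 31.5 and 39.4 CPM in shControl, 45.9 and 46.7 CPM in shMap3k7, 30.1 and 28.9 CPM in shChd1 and 43.9, 37.3, 48.3 and 41.7 CPM in shDouble, a log2 difference of 0.54 ± 0.13 (adjusted p 0.0064). Tigar, a phosphatase that lowers glycolytic flux, was at 17.7, 11.9 and 15.7 CPM in shControl, 18.1 and 17.96 CPM in shMap3k7, 12.1 and 10.9 CPM in shChd1 and 18.97, 16.5, 19.9 and 20.5 CPM in shDouble, a log2 difference of 0.72 ± 0.17 (adjusted p 0.0062). Both genes, like 31.8% of all genes, were higher in every shDouble library than in every shChd1 library. Polk was higher in 5 of the 6 libraries with the Map3k7 hairpin than in any control. Ei24, a protein of the endoplasmic reticulum membrane, was at 103, 80.7 and 101 CPM in shControl, 126 and 105 CPM in shMap3k7, 75.7 and 75.2 CPM in shChd1 and 122, 109, 101 and 112 CPM in shDouble, a log2 difference of 0.56 ± 0.13 (adjusted p 0.00588). Apaf1, the core of the apoptosome, was at 41.9, 38.5 and 50.1 CPM in shControl, 50.7 and 46.4 CPM in shMap3k7, 34.7 and 35.7 CPM in shChd1 and 47.1, 44.9, 46.5 and 45.2 CPM in shDouble, a log2 difference of 0.39 ± 0.11 (adjusted p 0.0181). For both genes the shChd1 values lay below all controls. The shDouble values of Apaf1 lay within the control range, and 3 of the 4 of Ei24 lay above it. Zmat3 was at 146, 115 and 149 CPM in shControl, 192 and 156 CPM in shMap3k7, 115 and 90.3 CPM in shChd1 and 189, 169, 137 and 149 CPM in shDouble.

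The 3 members that were lower with both hairpins were Dram1, Cd82 and Trp53inp1. Dram1 differed by -5.10 ± 0.42 (adjusted p 4.32e-05). Cd82, a tetraspanin of the cell surface known as a suppressor of metastasis, was at 32.7, 59.3 and 34.7 CPM in shControl, 24.8 and 38.2 CPM in shMap3k7, 70.2 and 66.6 CPM in shChd1 and 25.3, 32.04, 34.1 and 35.9 CPM in shDouble. The 3 libraries of line 4 were the highest of the 11, and the log2 difference was -1.10 ± 0.24 (adjusted p 0.00453). Trp53inp1, a stress protein that promotes p53 phosphorylation and autophagy, was at 87.6, 81.2 and 74.5 CPM in shControl, 69.5 and 55.2 CPM in shMap3k7, 95.8 and 98.5 CPM in shChd1 and 70.4, 72.6, 43.6 and 40.4 CPM in shDouble. All 6 libraries with the Map3k7 hairpin were lower than the other 5, and the log2 difference was -0.77 ± 0.22 (adjusted p 0.0175).

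Of the 17 calls between shDouble and shChd1, those of Mdm2, Pmaip1, Plk2, Plk3, Perp and Dram1 held in all 17 alternatives. Those of Cdkn1a, Zmat3, Polk, Tigar and Ei24 were lost with the line as a random block in limma voom and without shChd1 2, with adjusted p up to 0.176. The call of Apaf1 was lost there and without shChd1 1, with adjusted p up to 0.197. Where 1 shChd1 library was left out, the lone library was taken to vary like the other groups. Trp53 was not called without shChd1 1, shChd1 2, shDouble 3 or shDouble 4, with adjusted p up to 0.167. Aen was not called with the random block or without shChd1 1, shChd1 2, shDouble 1 or shDouble 2, with adjusted p up to 0.254. Trp53inp1 was not called without either shChd1 library, with adjusted p up to 0.0963, and Cd82 only with the random block (adjusted p 0.06).

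Gdf15, a secreted stress cytokine, was at 2.31, 0 and 0.11 CPM in shControl, 12.9 and 2.10 CPM in shMap3k7, 0.0622 and 0 CPM in shChd1 and 13.3, 12.9, 0.937 and 2.26 CPM in shDouble. Clone 1 held the 3 highest values and line 4 the 3 lowest. Pooled, shDouble had 637 counts and shChd1 1, a ratio of 253 after scaling to library totals normalised by TMM, the trimmed mean of M-values (95% counting interval 45.2 to 9990, counting error only). The adjusted p was 0.0259, and the call was lost in 4 of 17 alternatives, with limma voom (adjusted p 0.216), with the line as its random block (adjusted p 0.247), without shChd1 1 (adjusted p 0.119) and without shChd1 2 (adjusted p 0.152). The fitted fold is not given because it depends on the prior count.

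As fitted, the 2 Map3k7 clones differed at more members than any comparison with shControl. The clone fit held the line as a term and the shControl fits did not, so these counts are not of the same form. Each clone has 3 libraries, with no Chd1 hairpin, with 96526 and with 96528, and clone 7 was compared with clone 1 with the construct in the fit. In clone 7 14 of the 34 genes were lower and 4 higher, 52.9% of the members, where 22.9% of all genes were called, 9.79% higher and 13.1% lower. Lower calls took 41.2% of the members and higher calls 11.8%. The median log2 difference of the 34 was -0.28 beside 0.01 over all genes. The test is of these 2 clones, and libraries of a clone are not replicates of a condition.

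Genes for apoptosis held 8 of the 14 lower calls. Bax, which opens the mitochondrial outer membrane, was at 201, 201 and 209 CPM in clone 1, 124, 121 and 125 CPM in clone 7, 155, 130.04 and 179 CPM in shControl and 118 and 87.1 CPM in shChd1, with a log2 difference between the clones of -0.72 ± 0.12 (adjusted p 0.00429). Bbc3 encodes Puma, a BH3-only activator of Bax, and was at 8.78, 9.37 and 12.99 CPM in clone 1, 5.65, 5.21 and 3.92 CPM in clone 7, 5.31, 4.83 and 9.24 CPM in shControl and 6.47 and 3.73 CPM in shChd1, with a log2 difference between the clones of -1.09 ± 0.24 (adjusted p 0.0145). Aen, a nuclease that aids DNA fragmentation, was at 149, 144 and 158 CPM in clone 1, 94.6, 98.2 and 113 CPM in clone 7, 129.9, 93.6 and 132 CPM in shControl and 88.1 and 66.3 CPM in shChd1, with a log2 difference between the clones of -0.56 ± 0.13 (adjusted p 0.0156). All 3 clone 1 libraries exceeded all 3 clone 7 libraries in each of these genes. The share of all genes set apart in this way between the clones was not counted. Perp differed by -0.48 ± 0.11 (adjusted p 0.0151). Phlda3, a PH-domain inhibitor of Akt, was at 119.9, 124 and 129.6 CPM in clone 1, 83.2, 80.3 and 80.1 CPM in clone 7, 117, 87.2 and 103 CPM in shControl and 78.8 and 62.1 CPM in shChd1, with a log2 difference between the clones of -0.62 ± 0.11 (adjusted p 0.0053). The death receptor gene Tnfrsf10b was at 77.5, 65.4 and 64.4 CPM in clone 1, 51.4, 53.6 and 51.9 CPM in clone 7, 66.3, 52.6 and 51.96 CPM in shControl and 49.7 and 43.1 CPM in shChd1, with a log2 difference between the clones of -0.40 ± 0.08 (adjusted p 0.0115). For both, clone 1 lay above clone 7 in every library, and clone 7 lay below all controls for Phlda3 but not for Tnfrsf10b. Eda2r, the receptor of ectodysplasin A2, was at 40.6, 36.5 and 34.8 CPM in clone 1, 29.7, 23.5 and 27.2 CPM in clone 7, 29.02, 18.9 and 26.6 CPM in shControl and 21.7 and 18.1 CPM in shChd1, with a log2 difference between the clones of -0.48 ± 0.11 (adjusted p 0.014). Trp53inp1 differed by -0.62 ± 0.12 (adjusted p 0.0102).

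Outside apoptosis, the lower calls were the arrest genes Cdkn1a (-0.51 ± 0.10, adjusted p 0.00945), Plk3 (-0.47 ± 0.12, adjusted p 0.0228) and Zmat3 (-0.32 ± 0.09, adjusted p 0.0305), the feedback genes Mdm2 (-0.37 ± 0.07, adjusted p 0.00711) and Ccng1 (-0.28 ± 0.06, adjusted p 0.0164), and Gdf15. For Ccng1 the ranges of the clones overlapped, since the 96528 library of clone 1 was lower than 2 libraries of clone 7. Gdf15 was at 12.9, 13.3 and 12.9 CPM in clone 1 and 2.10, 0.937 and 2.26 CPM in clone 7, a log2 difference of -2.93 ± 0.28 (adjusted p 0.000408). The 4 higher genes were Trp53 (0.30 ± 0.09, adjusted p 0.0396), Mdm4 (0.52 ± 0.07, adjusted p 0.00157), Gadd45a (0.52 ± 0.16, adjusted p 0.0485), which binds PCNA in the damage response, and Cd82 (0.40 ± 0.11, adjusted p 0.0292). Mdm4, the inhibitor of p53 that pairs with Mdm2, was at 89.4, 95.6 and 93.8 CPM in clone 1 and 136, 132 and 132 CPM in clone 7, beside 126, 131 and 120.2 CPM in shControl and 137 and 145 CPM in shChd1. Clone 1 was thus the low line for Mdm4. Gadd45a was at 11.1, 7.52 and 9.41 CPM in clone 1, 15.5, 12.2 and 12.2 CPM in clone 7, 8.49, 6.49 and 12.4 CPM in shControl and 7.90 and 6.01 CPM in shChd1, and 19.1% of its exon length overlaps another gene on the opposite strand.

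**Figure D4:**
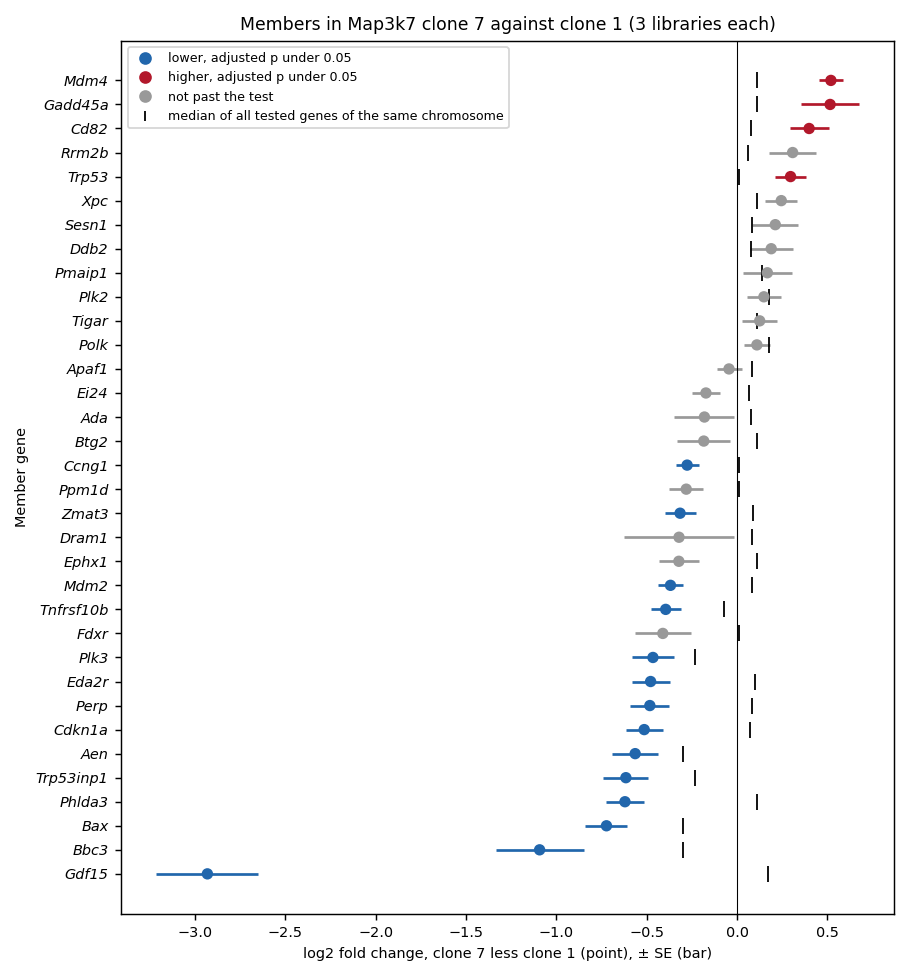
Log2 fold change of each member, clone 7 less clone 1, as a point with its standard error as a bar, over 3 libraries per clone; colour marks the calls and a black tick the median of all genes tested on the same chromosome. The 14 genes in blue lie left of their chromosome's tick, and Mdm4, Gadd45a, Cd82 and Trp53 in red lie right of it.

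Whole chromosomes also differed between the clones, and 5 called members lie on 2 that did. On chromosome 7, which holds Bax, Bbc3 and Aen, the median log2 difference over 1120 genes was -0.30, and 36.3% of its genes were called lower. On chromosome 4, which holds Plk3 and Trp53inp1, the median was -0.24 over 882 genes. Relative to the chromosome median, Bax was -0.42, Bbc3 -0.79, Aen -0.26, Plk3 -0.23 and Trp53inp1 -0.38 on the log2 scale. Mdm2, Perp, Cdkn1a and Zmat3 lie on chromosomes 10, 17 and 3, where the medians were between 0.07 and 0.09. The part of the chromosomes' shifts in the members' differences was not tested. The clone count rested on single libraries, since it was 7 without shDouble 1, 11 without shDouble 2 and 4 without shDouble 3. Over all genes the 22.9% called became 7.00%, 9.58% and 6.64% there. The members Bax, Gdf15, Mdm4 and Phlda3 were called in all 16 alternatives.

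Adding Chd1 hairpins to the Map3k7 clones called no member (shDouble against shMap3k7), with 0 of all genes called (0%). At an unadjusted p under 0.05 by edgeR there were 0 members and 0.802% of all genes, and DESeq2 or limma voom called 0 members. Like the next test, this fit took 1 mean per group and did not pair libraries by line, so differences between the clones counted as spread. With the line as a replicate block in edgeR, shDouble against shMap3k7 again gave 0 members and 0 of all genes. In a test of whether both knockdowns together departed from the sum of each, no member was called either, with 0 of all genes (0%), 1 member and 13.9% of all genes at an unadjusted p under 0.05 and 0 members by DESeq2 or limma voom. Without shControl 2 the edgeR count was 1, lower, which was Dram1, beside 7.09% of all genes. Pmaip1 was the only member whose shDouble range lay apart from its shMap3k7 range, at 18.7, 14.2, 19.004 and 16.9 against 20.5 and 23.9 CPM, and its log2 difference was -0.37 ± 0.30 (adjusted p 1). Of all genes 3.56% had the shDouble range above and 3.15% below.

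The other 9 members were called in no comparison by edgeR as fitted. Against shControl, DESeq2 called Ada higher with the Map3k7 hairpin alone (adjusted p 0.0317) and with both hairpins (adjusted p 0.0365). It called Ephx1 lower in shDouble than in shChd1 (adjusted p 0.0444) and in clone 7 than in clone 1 (adjusted p 0.0396). Ppm1d, the phosphatase that ends p53 signalling, ran from 20.2 to 34.98 CPM over the 11 libraries, and Btg2, an antiproliferative transcription cofactor, from 17.1 to 40.2 CPM with its highest value in control line 5. The repair genes Ddb2 (7.32 to 12.4 CPM), Xpc (21.3 to 35.6 CPM) and Rrm2b (10.1 to 16.5 CPM) act in damage recognition and nucleotide supply. Of the metabolic genes, Sesn1 ran from 5.37 to 9.69 CPM, Fdxr from 4.36 to 8.53 CPM, Ephx1 from 91.5 to 174 CPM and Ada, adenosine deaminase, from 3.02 to 9.02 CPM. Ada and Ppm1d were higher in all 6 libraries with the Map3k7 hairpin than in all 3 controls. Ddb2 shares 23.8% of its exon length with a gene on the opposite strand and Bax 12.2% with one on the same strand, and the labels give no strand marking, so reads there cannot be told apart.

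Other genes of the pathway were counted from lists that exclude the 34. In shMap3k7 against shControl, 3 of 21 regulators and relatives of p53 were higher and 2 lower, among them the kinase gene Hipk2 (-0.57 ± 0.12, adjusted p 0.0172), Trp63, the relative of p53 that marks basal epithelium (-3.00 ± 0.66, adjusted p 0.0184), Ppp1r13b (0.63 ± 0.14, adjusted p 0.0199) and Trp53bp2 (0.38 ± 0.08, adjusted p 0.0201), the latter pair encoding ASPP proteins that bind p53. Of 29 further p53 targets 2 were higher and 4 lower. Casp1, the inflammatory caspase, had 0 counts in shMap3k7 and was at least 22.7-fold lower than in shControl (3 counts over the group), Lif had a log2 change of -0.70 ± 0.12 (adjusted p 0.0074), and Thbs1, an inhibitor of angiogenesis, of 1.49 ± 0.26 (adjusted p 0.00792). Of 22 cell cycle genes that p21 lowers through the DREAM complex only the mitotic kinase gene Aurkb was called (-1.09 ± 0.12, adjusted p 0.000982). Of 18 BCL2 family and caspase genes 2 were higher and 2 lower, led by Bok (1.79 ± 0.29, adjusted p 0.00544). The median log2 change was 0.01 for the regulators, 0.21 for the further targets, 0.09 for the cell cycle genes and 0.04 for the BCL2 family and caspase genes, beside -0.01 over all genes, of which 4.86% were called higher and 7.08% lower.

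Against shChd1, shDouble had 9 of the 21 regulators higher and 4 lower, 12 of the 29 further targets higher and 5 lower, 11 of the 22 cell cycle genes higher and 1 lower, and 6 of 18 BCL2 family and caspase genes in each direction, where 22.6% of all genes were higher and 22.2% lower. The cell cycle gene Mybl2 was 1.18 ± 0.15 (adjusted p 0.00023) and Cdk1 0.93 ± 0.15 (adjusted p 0.00101) on the log2 scale, in the same contrast in which Cdkn1a was higher. The median difference of the cell cycle genes was 0.36 and that of the further targets 0.42 there. In shDouble against shControl the counts were 4 higher and 3 lower, 6 and 6, 3 and 1, and 3 and 3 for these lists in the same order, beside 10.2% and 13.6% of all genes. Between the clones, clone 7 had 2 regulators higher and 2 lower, 2 further targets higher and 7 lower, and 6 cell cycle genes higher and none lower, beside 9.79% and 13.1% of all genes. Sesn2, a stress-induced sestrin, was -0.95 ± 0.11 (adjusted p 0.000959), Bub1 0.52 ± 0.09 (adjusted p 0.00534) and Pcna 0.41 ± 0.07 (adjusted p 0.00543) on the log2 scale. In shChd1 against shControl 2 further targets, Sfn (-2.41 ± 0.49, adjusted p 0.0394) and Tgfa (-1.24 ± 0.28, adjusted p 0.0466), and 2 cell cycle genes, Plk1 (-0.64 ± 0.12, adjusted p 0.0354) and Mybl2 (-0.70 ± 0.15, adjusted p 0.0434), were lower, and no gene of these lists was higher, beside 2.24% of all genes lower and 0.662% higher.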

How the data were processed

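Counts were taken from the deposited raw table of expected counts, 1 column per library, which the authors made with Bowtie2 and RSEM 1.3.1 on GRCm38, per the submitters' processing notes; limma is also named there, and of the annotation and strand setting nothing is given in the sources used here. A second deposited table, of normalized values, was left out. Expected counts were rounded to whole numbers. Between 7.83% and 9.11% of a library's values were not whole. In R 4.3.3, edgeR 4.0.16 normalised 11 libraries by TMM, kept 14346 genes by filterByExpr (minimum count 10, minimum total 15) and fitted a quasi-likelihood model with 1 mean per group and 7 residual degrees of freedom. Chd1 hairpins and clones were compared in models with the line as a term, the construct model with 4 residual degrees of freedom. P-values were adjusted by Benjamini-Hochberg over all genes tested, and a gene with an adjusted p under 0.05 was called. CPM used the TMM library sizes, and 3 counts in a library corresponded to 0.133 to 0.217 CPM. Intervals and bounds from counts cover counting error only, since reads carried no molecular identifiers.

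Alternatives were limma 3.58.1 (voom), DESeq2 1.42.0, DESeq2 size factors, no filter, only the groups compared, a replicate block, and each library left out. The edgeR test was tried on simulated counts for some of the comparisons, with libraries drawn independently of their line. The other steps were not tried in this way. Libraries are numbered within groups in the order of deposit, and the line, taken from the labels, is what pairs them: the clone 1 less clone 7 differences of the shMap3k7 and shDouble libraries correlated across genes at r = 0.500. No pair of libraries agreed within sampling noise, the smallest chi-square per degree of freedom being 3.44. All 34 members are named, with every library's value for those called in any comparison and for Trp53, Cdkn1a and Mdm2. Of the other lists at most 4 called genes per comparison are named, by smallest adjusted p. The symbol Cop1 of the regulator list was not found in the table. The members and lists were chosen with earlier results of these data known. Dates stood in place of 25 symbols, and these genes cannot be named. Gene coordinates came from GENCODE M21 by symbol.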

Additional observations from a re-analysis of the deposited data

Results flagged for a closer look

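The difference between the Chd1 constructs at Ccng1, -0.745 on the log2 scale (96528 less 96526 within line), was past the test of the constructs within line (edgeR, adjusted p 0.0136), and 96528 was the lower in all 3 lines. Ddb2 in shDouble 4 stood apart from the other 3 shDouble libraries at 12.4 CPM, against 10.0 to 10.3 CPM, with a gap of 0.867 of the group's range. Chance alone sets about 1 in 20 such groups apart. No other member's library was set apart in shDouble, the one group with enough libraries for this test.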

How the results depend on the processing

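No gene change that was recomputed (those called or more than 2 SE from 0) changed sign under any alternative. In shMap3k7 against shControl the 4 members called became 7 with DESeq2 and 2 with only the groups compared, and 2 to 5 when 1 library was left out; over all genes 1712 became 2599, 227 and, with the line as a random block in limma voom, 722. In shChd1 against shControl 0 became 1 with no filter on low counts, 1 with limma voom, 3 with DESeq2 and 0 to 10 when 1 library was left out, and the 417 of all genes ranged from 0 to 2650, with 5 without shControl 1. In shDouble against shControl 4 stayed between 4 and 6. Over all genes 3413 became 1557 there with the line as a random block in limma voom. The correlation of libraries of a line was 0.631 in that fit. In shDouble against shChd1 17 became 8 with the line as a replicate block in limma voom and 7 to 19 when 1 library was left out. The interaction gave 0 to 1, with 1 without shControl 2. Between the constructs 1 became 0 with no replicate block and 0 to 1 when 1 library was left out. Between the clones 18 became 4 to 20, with 7, 11 and 4 without shDouble 1, 2 and 3. The cause of these changes was not tested. With the line as a replicate block in limma voom, Plk3 was not called in shMap3k7, 3 members being called there. Depth limited Gdf15, with 1 count over both shChd1 libraries.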
